A study of Mus musculus with 24 samples.

Results

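The 10 genes described here are 3 markers of alternative activation (Arg1, Chil3 and Retnla), 5 matrix metalloproteases (Mmp8, Mmp9, Mmp12, Mmp14 and Mmp19) and 2 tissue inhibitors of metalloproteases (Timp1 and Timp2). They were taken by symbol from 25746 genes counted in each of 24 libraries, and all 10 were found. Polyadenylated RNA was sequenced from eosinophils grown out of C57BL/6 mouse bone marrow with stem cell factor and FLT3 ligand and then interleukin-5 (IL-5), a growth factor for eosinophils. All cells were kept in IL-5 during an overnight stimulation, the untreated ones included. The 8 groups of 3 libraries were CSF2ra-/- cells with recombinant granulocyte-macrophage colony-stimulating factor (GM-CSF), untreated CSF2ra-/- cells, cells labelled Irf5-/- with GM-CSF, untreated cells labelled Irf5-/-, WT cells with recombinant interleukin-10 (IL-10) and GM-CSF together, WT cells with GM-CSF, WT cells with IL-10, and untreated WT cells. Csf2ra is the gene of the receptor chain that binds GM-CSF, and Irf5 that of an interferon regulatory factor. The labels speak of cell triplicates and do not say whether these came from separate animals or cultures, so the p-values measure only the spread between the libraries, which may be technical.

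The library totals ran from 6222979 to 18709153 counts. Eosinophil granule genes were high throughout, with Prg2 (major basic protein) at 39140 to 65230 CPM (counts scaled to library size) and Epx (eosinophil peroxidase) at 13510 to 20770 CPM. Irf5 went against its label. The 6 libraries labelled Irf5-/- had 1394 to 1999 CPM of it, against 28.3 to 94.3 CPM in the other 18. These are therefore called the libraries labelled Irf5-/- throughout, and each direction drawn from them rests on that label. Csf2ra was lower and not absent in the 6 CSF2ra-/- libraries, at 28.5 to 39.8 CPM, against 41.8 to 83.8 CPM in the other 18. The summed level of 4 Y-linked genes was high in all 6 CSF2ra-/- libraries and differed among the libraries of each WT group and each group labelled Irf5-/-.

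In macrophages, interleukin-4 and interleukin-13 act through STAT6 to switch on a programme called alternative activation, of which arginase 1, the chitinase-like protein Ym1 and the secreted protein RELMα are the usual mouse markers. Metalloproteases cut collagen, elastin and other parts of the extracellular matrix, and also cytokines and chemokines, while tissue inhibitors of metalloproteases bind and block them. Eosinophils are a source of interleukin-4 and interleukin-13 and take part in tissue remodelling in allergic inflammation and worm infection.

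Set against transcript length, the genes spanned a wide range of levels. Timp2 had the highest median over the 24 libraries, at 175 TPM (counts scaled to transcript length and library size). It was followed by Mmp8 at 145 TPM, Retnla at 58.3 TPM, Chil3 at 52.7 TPM, Mmp12 at 43.3 TPM, Arg1 at 18.9 TPM, Mmp9 at 17.1 TPM and Mmp19 at 7.06 TPM. Timp1 (1.72 TPM) and Mmp14 (0.413 TPM) were near the lower end of what these libraries could count, with 448 and 462 reads in all. The ranges of neighbouring genes overlapped in this order, so the medians do not separate Retnla, Chil3 and Mmp12.

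**Figure D1:**
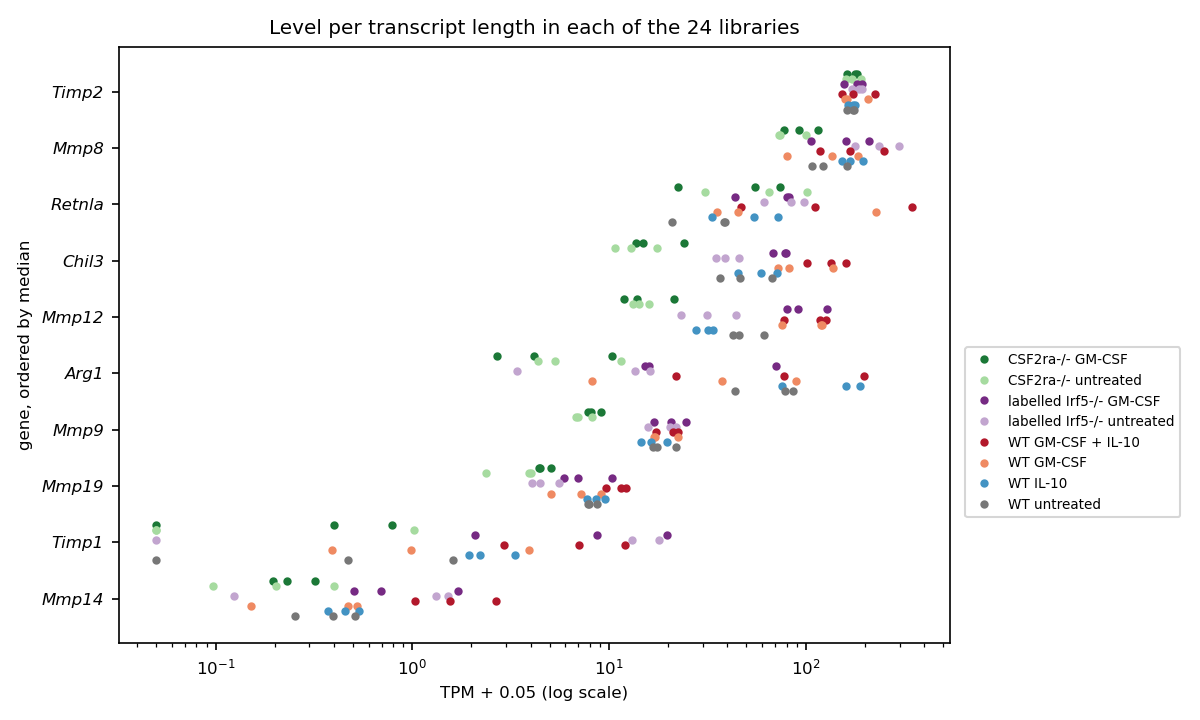
Each point is the level of a gene in 1 of the 24 libraries, in TPM plus 0.05 on a log axis, coloured by group, with the genes ordered by their median. Timp2 stayed between 153 and 226 TPM in all 24 libraries, whereas Arg1 ran from 2.64 to 197 TPM.

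Below, levels are CPM with library sizes corrected by edgeR's TMM factors, and each change is a log2 fold change ± SE from edgeR's quasi-likelihood model over all 24 libraries. Genes counted as called had an adjusted p under 0.05 (Benjamini-Hochberg, over all 11885 genes tested), and rose or fell is written only of called genes. All 10 genes passed the filter on low counts.

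Mmp12 and Chil3 rose when GM-CSF was added to WT cells that also had IL-10, and were called in no comparison of IL-10 alone. Chil3, Mmp9 and Mmp12 fell in CSF2ra-/- cells relative to WT cells both with GM-CSF and without it, and Arg1 and Mmp19 fell in the untreated comparison. Retnla, Mmp8, Mmp14, Timp1 and Timp2 were called in none of the pairwise comparisons. Over all 8 groups together, edgeR's test of any difference called 8 of the 10 genes, against 12.3% of all genes tested. The exceptions were Retnla (adjusted p = 0.286) and Timp2 (adjusted p = 0.95). In the other direction, limma-voom did not call Timp1 (adjusted p = 0.0669).

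Set against untreated WT cells, WT cells with GM-CSF had 0 of the 10 genes called by edgeR, where 0.555% of all genes were called. Unadjusted p was under 0.05 for 3 of them and for 6.27% of all genes, DESeq2 called 2 (Chil3 and Mmp12) and limma-voom 0. IL-10 alone also gave 0 called by edgeR, DESeq2 and limma-voom, with 1 gene at an unadjusted p under 0.05, as were 4.54% of all genes, and 0.0505% of all genes called. Both cytokines against none gave 2 of 10, Chil3 and Mmp12, both higher, where 1.15% of all genes were called higher. In that comparison all 10 log2 fold changes were above 0, with a median of 0.80. The libraries of 6 of the 10 genes did not overlap between those groups, as was so for 16.0% of all genes, and 1.5% of all genes were called in either direction.

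Adding GM-CSF to IL-10-treated cells gave the same 2 genes, where 0.724% of all genes were called higher and 0.858% in either direction. Adding IL-10 to GM-CSF-treated cells gave 0 by edgeR, DESeq2 and limma-voom, with 3 at an unadjusted p under 0.05, as were 3.21% of all genes, and 0.0505% of all genes called. These WT comparisons share their untreated, IL-10 or GM-CSF libraries and are not independent of each other. In CSF2ra-/- cells GM-CSF gave 0 of 10 by all 3 tools and 0 at an unadjusted p under 0.05, and 0.0% of all genes were called. In libraries labelled Irf5-/- it gave 1 of 10, Mmp12, where 0.353% of all genes were called, all of them higher.

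CSF2ra-/- cells differed from WT cells in 5 of the 10 genes when untreated, all lower, where 5.32% of all genes were called lower and 10.8% in either direction. With GM-CSF in both, 3 of the 10 were lower, where 2.89% of all genes were called lower and 3.79% in either direction. The median log2 fold change of the 10 genes was -1.04 untreated and -1.12 with GM-CSF. Libraries labelled Irf5-/- had 0 of 10 called against WT by edgeR, DESeq2 and limma-voom, both untreated and with GM-CSF. Unadjusted p was under 0.05 for 6 of the genes untreated, where 14.0% of all genes were, and for 2 with GM-CSF, where 1.46% were. By edgeR 0.0337% of all genes were called in each of these comparisons.

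**Figure D2:**
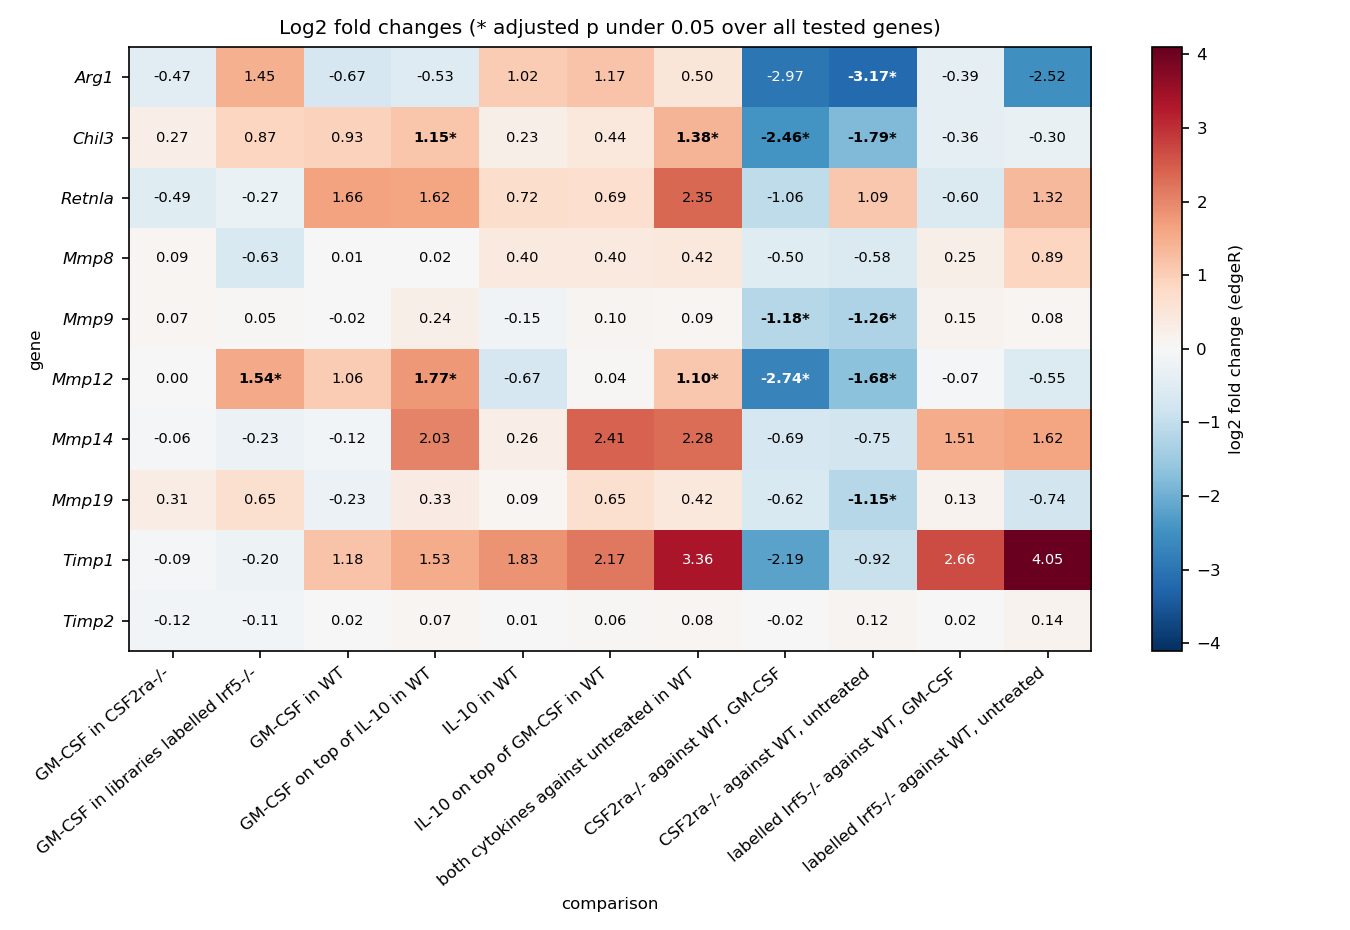
Each cell gives the log2 fold change of a gene (row) in a comparison (column), coloured from blue (lower) to red (higher), with an asterisk where the adjusted p was under 0.05 over all genes tested. The asterisks are confined to Arg1, Chil3, Mmp9, Mmp12 and Mmp19, and the CSF2ra-/- comparisons hold 8 of the 13.

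Chil3 (ENSMUSG00000040809, GRCm38 chromosome 3, 106147554 to 106167564, minus strand) encodes Ym1, a secreted chitinase-like protein that forms crystals in allergic mouse airways. It had 90.4, 81.03 and 57.8 CPM in WT cells with both cytokines and 77.04, 48.6 and 42.4 CPM in WT cells with GM-CSF. In WT cells with IL-10 it had 34.5, 27.1 and 41.6 CPM, and in untreated WT cells 38.4, 26.8 and 22.7 CPM. Every library with GM-CSF, alone or with IL-10, lay above every untreated library. The log2 fold change was 1.38 ± 0.25 for both cytokines against none (adjusted p = 0.00452) and 1.15 ± 0.25 for GM-CSF added to IL-10 (adjusted p = 0.027). For GM-CSF alone it was 0.93 ± 0.25, which edgeR did not call (adjusted p = 0.141) and DESeq2 did (adjusted p = 0.0306). The call for GM-CSF added to IL-10 was lost without WT IL-10 replicate 1 (adjusted p = 0.158) or 2 (0.198) and without replicate 1 (0.129) or 2 (0.0789) of both cytokines, and with no filter on low counts (0.0545).

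CSF2ra-/- cells had the lowest Chil3 levels of the series. They held 13.7, 8.35 and 8.202 CPM with GM-CSF and 12.5, 7.19 and 6.74 CPM untreated. All 6 of these libraries lay below all 18 others. Chil3 fell against WT, with a log2 fold change of -2.46 ± 0.27 with GM-CSF (adjusted p = 6.85e-06) and -1.79 ± 0.28 untreated (adjusted p = 0.000689). Within CSF2ra-/- cells the GM-CSF log2 fold change of Chil3 was 0.27 ± 0.29 (95% interval -0.34 to 0.88). In the libraries labelled Irf5-/- Chil3 stood at 46.2, 44.9 and 39.9 CPM with GM-CSF and 27.04, 21.8 and 23.1 CPM untreated. Those 2 groups did not overlap, and the log2 fold change of 0.87 ± 0.26 was not called (adjusted p = 0.307), though it was with the 2 groups fitted alone (0.00238).

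The promoter windows of Chil3 and Mmp12 are shown because these genes moved together. That of Retnla is shown because it is a second STAT6 target in macrophages and was called in no comparison of the model over all 24 libraries. Windows of 300 bases, from 250 before to 50 after an annotated start, came from RefSeq on GRCm38.p6, which held 7 of the 10 genes in 8 windows. Arg1, Mmp9 and Mmp19 had none. The windows were searched for TTCNNNGAA, the spacing that STAT5 commonly binds, for TTCNNNNGAA, the spacing that STAT6 prefers, and for TGANTCA, an AP-1 element. Each reads the same on both strands. They occurred in 8.3%, 6.95% and 7.81% of 32851 windows of this length. Capitals mark the match.
Chil3, chr3:106167515-106167814, minus strand: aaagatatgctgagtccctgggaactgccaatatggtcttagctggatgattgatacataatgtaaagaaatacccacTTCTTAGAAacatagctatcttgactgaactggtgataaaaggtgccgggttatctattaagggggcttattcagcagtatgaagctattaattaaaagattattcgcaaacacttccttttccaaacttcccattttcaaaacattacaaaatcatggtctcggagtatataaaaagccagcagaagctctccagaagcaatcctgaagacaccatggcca
Retnla, chr16:48842359-48842658, plus strand: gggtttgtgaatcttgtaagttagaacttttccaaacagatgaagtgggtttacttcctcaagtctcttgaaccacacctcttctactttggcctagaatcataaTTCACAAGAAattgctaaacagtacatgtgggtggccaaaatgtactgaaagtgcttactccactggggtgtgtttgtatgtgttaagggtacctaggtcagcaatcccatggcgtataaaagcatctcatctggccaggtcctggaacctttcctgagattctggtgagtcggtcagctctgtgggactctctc
Mmp12 first start, chr9:7344147-7344446, plus strand: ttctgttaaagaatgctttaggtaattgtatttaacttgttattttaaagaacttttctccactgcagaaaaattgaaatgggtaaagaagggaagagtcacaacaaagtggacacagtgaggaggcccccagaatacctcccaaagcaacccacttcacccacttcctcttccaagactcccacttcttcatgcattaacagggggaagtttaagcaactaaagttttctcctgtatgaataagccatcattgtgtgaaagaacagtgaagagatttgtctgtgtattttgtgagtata
Mmp12 second start, chr9:7347124-7347423, plus strand: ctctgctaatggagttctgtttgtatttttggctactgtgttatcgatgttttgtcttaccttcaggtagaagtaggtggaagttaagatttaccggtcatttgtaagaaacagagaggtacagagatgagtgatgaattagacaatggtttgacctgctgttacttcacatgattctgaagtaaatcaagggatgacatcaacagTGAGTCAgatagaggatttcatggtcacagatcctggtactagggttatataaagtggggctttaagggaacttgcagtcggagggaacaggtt
The Chil3 window held TTCNNNGAA as TTCTTAGAA, 172 bases before the start. The Retnla window held TTCNNNNGAA as TTCACAAGAA, 145 bases before the start. At Mmp12 the second start had TGANTCA as TGAGTCA, 44 bases before it, and the first start had none of the 3. The windows of Mmp8, Mmp14, Timp1 and Timp2 had none of the 3. A match is a run of letters and not a measured binding site.

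Arg1 (ENSMUSG00000019987, chromosome 10, 24915221 to 24927484, minus strand) encodes arginase 1, which splits arginine into ornithine and urea. Its libraries spread far within groups. WT cells with both cytokines had 60.2, 162 and 16.9 CPM, WT cells with GM-CSF 28.6, 6.52 and 71.4 CPM, WT cells with IL-10 151, 131 and 60.3 CPM and untreated WT cells 34.04, 68.5 and 66.2 CPM. The 4 WT groups overlapped, although the mean was highest with IL-10, at 114 ± 47.5 CPM, against 56.3 ± 19.3 CPM untreated (SD, n = 3 each). No cytokine effect on Arg1 in WT cells was called, and for IL-10 the log2 fold change was 1.02 ± 0.79 (95% interval -0.64 to 2.69, adjusted p = 0.999). In each WT group Arg1 was highest where the Y-linked sum was low. That sum was 182, 46.99 and 171 CPM with both cytokines and 178, 176 and 52.5 CPM with GM-CSF. With IL-10 it was 60.9, 56.0 and 175 CPM, and untreated 173, 58.2 and 52.7 CPM. In libraries labelled Irf5-/- with GM-CSF (163, 13.2 and 44.01 CPM) Arg1 was highest where the sum was highest. In the untreated ones of that label (178, 12.1 and 39.3 CPM) Arg1 was highest where the sum was lowest. The cause was not tested.

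Arg1 was low in every CSF2ra-/- library, at 3.19, 2.03 and 8.42 CPM with GM-CSF and 4.19, 4.005 and 9.88 CPM untreated. Against untreated WT cells, whose libraries all lay higher, it fell, with a log2 fold change of -3.18 ± 0.93 (adjusted p = 0.0369). That call was lost without untreated CSF2ra-/- replicate 1 (adjusted p = 0.14) or 2 (0.0798), without untreated WT replicate 2 (0.126) or 3 (0.0916), and when the Y-linked level was a covariate (0.077). It was also lost with limma-voom (0.0555) and with no filter on low counts (0.0707). With GM-CSF the knockout difference was -2.97 ± 0.95 and not called (adjusted p = 0.105), whereas it was called without WT GM-CSF replicate 2 (adjusted p = 0.0447) and by DESeq2 (0.0193). Libraries labelled Irf5-/- had 56.1, 12.5 and 12.2 CPM with GM-CSF and 2.72, 13.7 and 10.98 CPM untreated. The untreated ones all lay below the untreated WT libraries, with a log2 fold change of -2.52 ± 0.89 that was not called (adjusted p = 0.3).

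Within groups Arg1 was highest in the same library as some dendritic cell and macrophage markers, and not as others. Mrc1, the macrophage mannose receptor, had 21.8, 62.6 and 8.44 CPM in WT cells with both cytokines, 6.17, 1.86 and 17.2 CPM with GM-CSF, 91.9, 71.8 and 36.3 CPM in those with IL-10 and 15.8, 22.6 and 23.1 CPM in untreated ones. The library with the most Arg1 was also the one with the most Mrc1 in 5 of the 8 groups, with the most C1qa (a complement gene of macrophages) in 6, and with the most Cd209a (a dendritic cell lectin) in 6. Some of these matches rested on few reads. Untreated libraries labelled Irf5-/- had 0, 2 and 1 C1qa counts and 0, 5 and 2 Cd209a counts, and CSF2ra-/- libraries with GM-CSF had 0, 1 and 2 Cd209a counts. CSF2ra-/- libraries had 3.19, 1.66 and 2.66 CPM of Mrc1 with GM-CSF and 2.34, 2.59 and 3.08 CPM untreated, and C1qa was at 0 in 5 of the 6. The 10 dendritic cell markers, summed, were highest in the library with the most Arg1 in all 8 groups. The 18 macrophage markers, summed, were so in 2 groups, and in 3 they were highest where Arg1 was lowest. Much of the dendritic cell sum was Cd74 and H2-Aa, genes of antigen presentation. In WT cells with GM-CSF their means were 282 and 89.5 CPM, of a mean sum of 588 CPM. The defining dendritic cell markers were low there, with means of 1.79 CPM for Zbtb46, 2.12 for Flt3, 4.33 for Cd209a and 0 for Xcr1. Taken singly, 6 of the 10 dendritic cell markers shared the highest library of Arg1 in 5 or more groups (median 5.5 groups, range 0 to 7). Of the 18 macrophage markers 8 did (median 4 groups, range 0 to 7). The library with the most Arg1 had the most Csf1r, the macrophage growth factor receptor gene, in 1 group and the least in 3, and it had the most Adgre1, the F4/80 gene, in 2 and the least in 4. In bulk RNA, fewer cells of a type and less RNA per cell cannot be told apart. The part of such cells in the Arg1 levels was not tested.

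**Figure D3:**
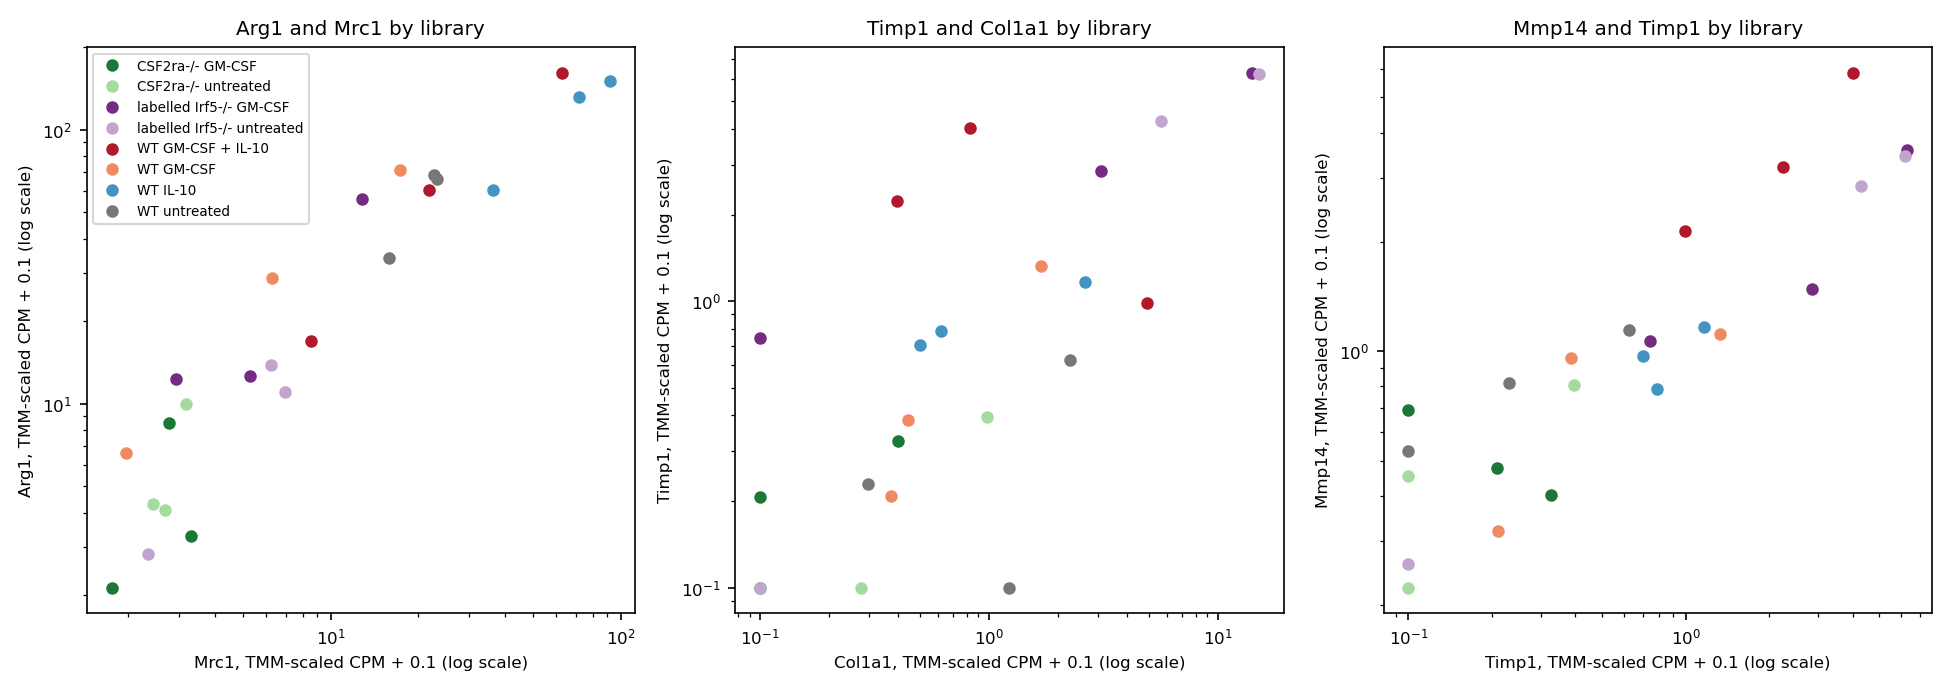
Each point is 1 of the 24 libraries, coloured by group, with TMM-scaled CPM plus 0.1 on log axes for Arg1 against Mrc1, Timp1 against Col1a1, and Mmp14 against Timp1. The libraries with most Mrc1, in WT cells with IL-10 or both cytokines, also had most Arg1, and the libraries labelled Irf5-/- with most Col1a1 also had most Timp1.

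Retnla (ENSMUSG00000061100, chromosome 16, 48842551 to 48844461, plus strand) encodes RELMα, a small secreted protein also called FIZZ1. WT cells with both cytokines had 9.696, 24.7 and 72.4 CPM, WT cells with GM-CSF 7.26, 49.4 and 9.77 CPM, WT cells with IL-10 15.5, 12.1 and 7.14 CPM and untreated WT cells 4.38, 8.18 and 8.82 CPM. A single library stood far above the other 2 with GM-CSF (replicate 2) and with both cytokines (replicate 3). The lowest library with both cytokines still lay above the highest untreated one, whereas the GM-CSF and untreated groups overlapped. The log2 fold change was 2.34 ± 0.75 for both cytokines (adjusted p = 0.16) and 1.66 ± 0.75 for GM-CSF (adjusted p = 0.732), and neither was called.

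CSF2ra-/- libraries had 15.5, 11.4 and 4.95 CPM of Retnla with GM-CSF and 26.5, 13.3 and 7.16 CPM untreated, and libraries labelled Irf5-/- had 9.32, 16.99 and 17.7 CPM with GM-CSF and 21.3, 14.2 and 18.2 CPM untreated. These 4 groups overlapped one another. The lowest group mean was that of untreated WT cells, at 7.13 ± 2.403 CPM (SD, n = 3). All untreated libraries labelled Irf5-/- lay above all untreated WT ones. That difference was not called in the model over all 24 libraries. It was with the 2 groups fitted alone (log2 fold change 1.33, edgeR adjusted p = 0.00728). The library with the most Retnla was the one with the least Arg1 in 4 of the 8 groups and the one with the most Arg1 in 1.

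Mmp12 (ENSMUSG00000049723, chromosome 9, 7344381 to 7369499, plus strand) encodes macrophage metalloelastase. GM-CSF separated its libraries in WT cells and in cells labelled Irf5-/-. WT cells with both cytokines had 298, 339 and 196 CPM and WT cells with GM-CSF 298, 196 and 317 CPM, while WT cells with IL-10 had 87.8, 73.9 and 82.4 CPM and untreated WT cells 155, 118 and 117 CPM. All 6 WT libraries with GM-CSF lay above all 6 without it, and the 3 with IL-10 alone lay below the 3 untreated ones. Mmp12 rose by a log2 fold change of 1.77 ± 0.27 when GM-CSF was added to IL-10 (adjusted p = 0.000735) and of 1.10 ± 0.26 with both cytokines against none (adjusted p = 0.0349).

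The Mmp12 call for both cytokines was lost without replicate 1 (adjusted p = 0.111) or 2 (0.127) of that group, without untreated WT replicate 2 (0.193) or 3 (0.191), and with no filter on low counts (0.0805). For GM-CSF alone the change of Mmp12 was 1.06 ± 0.26 (95% interval 0.51 to 1.60), which missed the threshold (adjusted p = 0.0866). It passed without WT GM-CSF replicate 2 (adjusted p = 0.045), with DESeq2 (0.00594) and with the 2 compared groups fitted alone (0.0474). For IL-10 alone it was -0.67 ± 0.26 and not called (adjusted p = 0.932), though it passed with the 2 groups fitted alone (0.0205).

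In CSF2ra-/- cells the groups with and without GM-CSF were not apart. They had 54.2, 29.6 and 36.9 CPM of Mmp12 with GM-CSF and 50.2, 32.3 and 39.7 CPM untreated, and the 3 untreated values lay within the range of the 3 with GM-CSF. There GM-CSF gave a log2 fold change of 0.00 ± 0.27, with a 95% interval of -0.56 to 0.56. Every CSF2ra-/- library lay below every other library of the series. Against WT, Mmp12 fell by 2.74 ± 0.28 on the log2 scale with GM-CSF (adjusted p = 2.65e-06) and by 1.68 ± 0.27 untreated (adjusted p = 0.000789). Libraries labelled Irf5-/- had 332, 205 and 237 CPM with GM-CSF and 60.96, 87.7 and 116 CPM untreated. All 3 with GM-CSF lay above all 3 untreated, and Mmp12 rose by 1.54 ± 0.27 (adjusted p = 0.00759). This call was lost without GM-CSF replicate 1 of that label (adjusted p = 0.0787), without its untreated replicate 1 (0.0814) or 2 (0.0687), and with the 2 groups fitted alone (0.196).

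**Figure D4:**
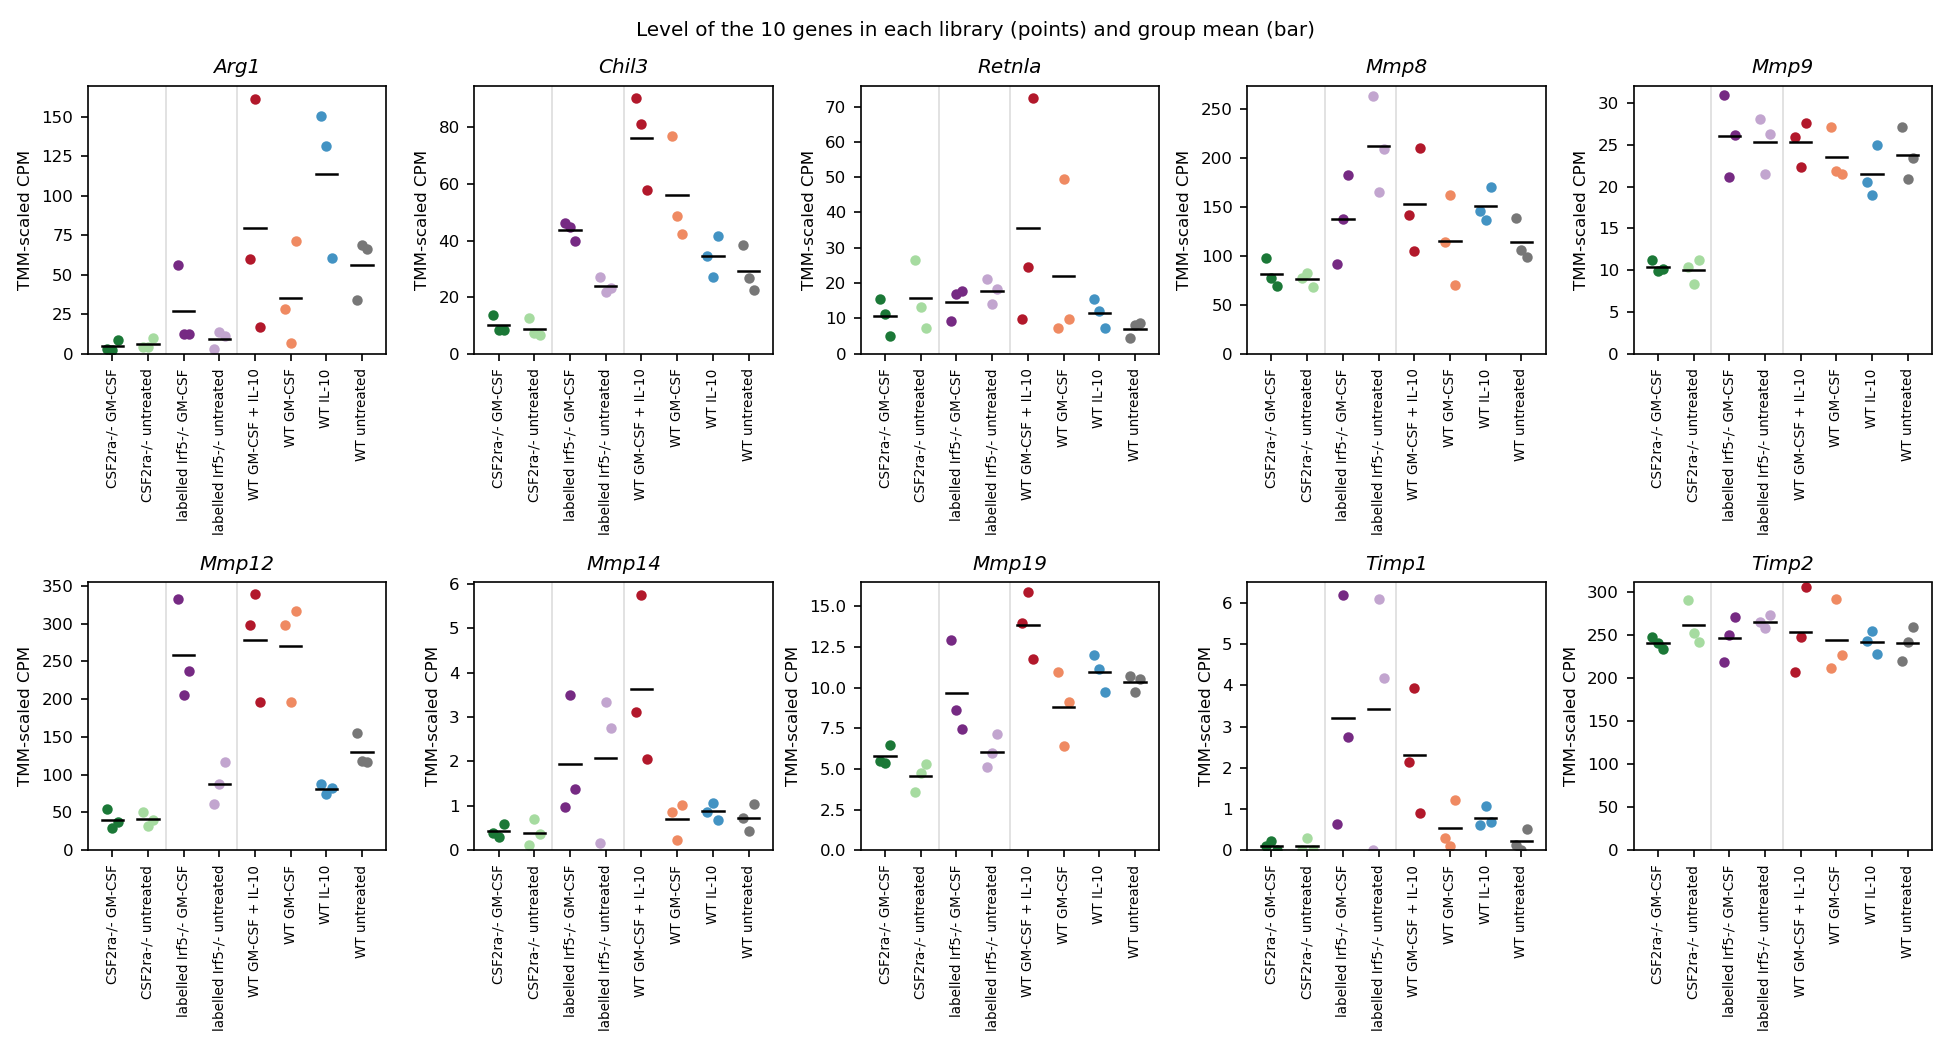
Each panel shows the TMM-scaled CPM of a gene, with a point for each library and a bar at the mean of the 3 libraries of a group. Mmp12 and Chil3 are high in the GM-CSF groups of WT cells and of libraries labelled Irf5-/- and low in both CSF2ra-/- groups, Mmp9 is low in CSF2ra-/- alone, and Timp2 is level.

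The GM-CSF effect itself was compared between settings. For Mmp12 the CSF2ra-/- effect minus the WT effect was -1.06 ± 0.37 (95% interval -1.84 to -0.28), which did not pass the correction (edgeR adjusted p = 0.834). With IL-10 present the effect on Mmp12 was larger by 0.71 ± 0.37 (95% interval -0.05 to 1.48, adjusted p = 1.0). The difference for Chil3 was -0.66 ± 0.39 between CSF2ra-/- and WT (95% interval -1.47 to 0.14, adjusted p = 0.851). In each of the 3 differences of effects edgeR, DESeq2 and limma-voom called 0 of the 10 genes, with 1 at an unadjusted p under 0.05 in each. By edgeR 0.0%, 0.0589% and 0.0% of all genes were called for the difference with and without IL-10, for CSF2ra-/- minus WT and for libraries labelled Irf5-/- minus WT. The response of Mmp12 and Chil3 is therefore not shown to differ between these settings.

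**Figure D5:**
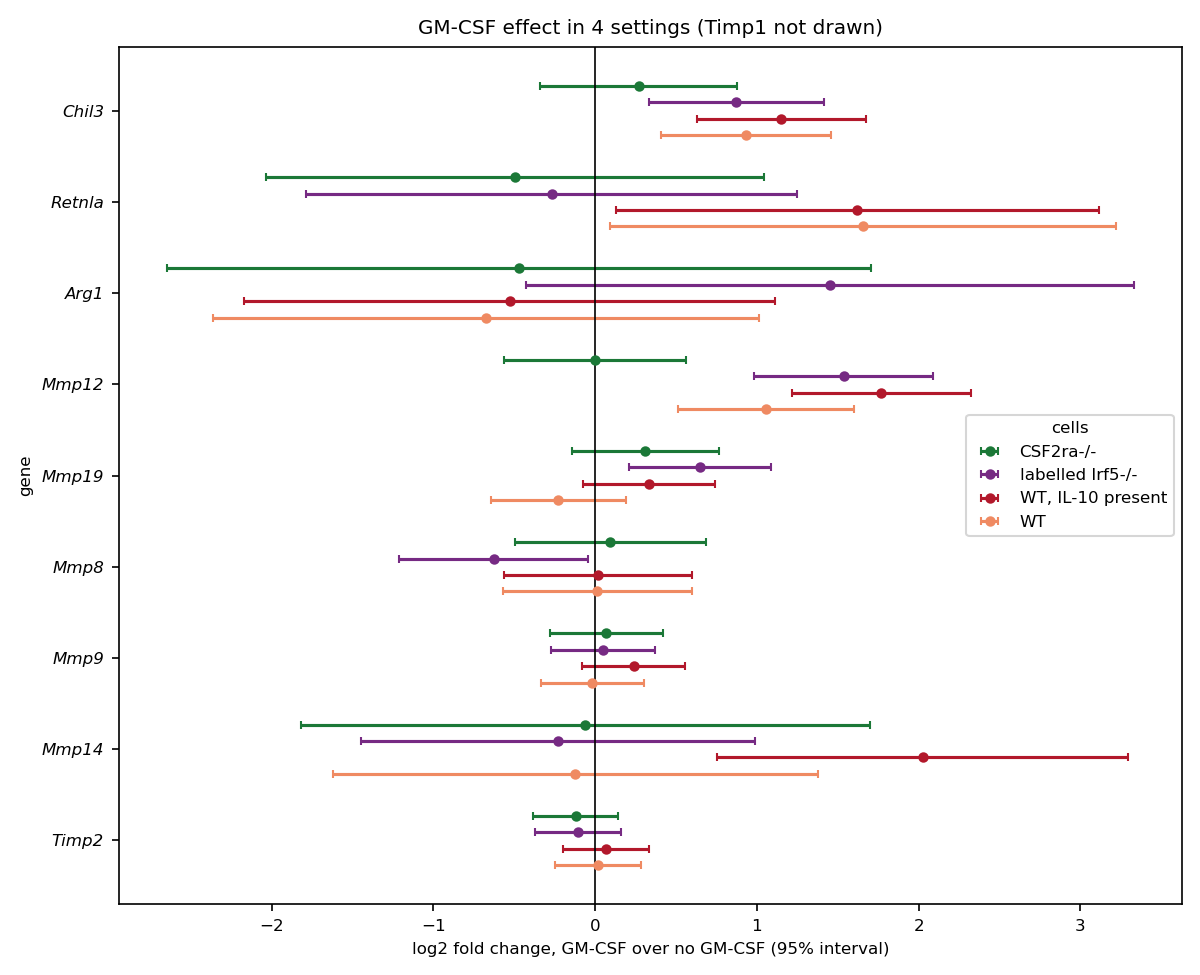
The log2 fold change of GM-CSF over no GM-CSF is drawn with its 95% interval for 9 genes in CSF2ra-/- cells, libraries labelled Irf5-/-, WT cells with IL-10 present and WT cells, and Timp1 is left out for its wide intervals. For Mmp12 the interval in CSF2ra-/- lies around 0 and the other 3 lie above it, while Mmp9 and Timp2 lie around 0 in all 4.

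Mmp9 (ENSMUSG00000017737, chromosome 2, 164940780 to 164955850, plus strand) encodes gelatinase B, which cuts denatured collagen and type IV collagen. It was called in none of the cytokine comparisons by edgeR and was lower in the CSF2ra-/- cells. These had 11.2, 9.86 and 10.1 CPM with GM-CSF and 10.4, 8.305 and 11.2 CPM untreated, while WT cells had 27.2, 21.9 and 21.6 CPM with GM-CSF and 27.1, 20.9 and 23.4 CPM untreated. The 6 CSF2ra-/- libraries all lay below the other 18, whose lowest had 18.98 CPM. Mmp9 fell by 1.18 ± 0.16 on the log2 scale with GM-CSF (adjusted p = 6.31e-05) and by 1.26 ± 0.16 untreated (adjusted p = 9.35e-05). In WT cells the GM-CSF effect was -0.02 ± 0.15 (95% interval -0.34 to 0.30) and the IL-10 effect -0.15 ± 0.15 (95% interval -0.47 to 0.17). Libraries labelled Irf5-/- had 30.9, 21.1 and 26.2 CPM with GM-CSF and 28.2, 21.5 and 26.3 CPM untreated. Replicate 1 of each group lay above the WT range of 18.98 to 27.6 CPM and the other 4 lay within it.

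Mmp8 (ENSMUSG00000005800, chromosome 9, 7558456 to 7568485, plus strand) encodes neutrophil collagenase and lies 188957 bases from the end of Mmp12 in the same metalloprotease cluster. Its highest group was the untreated one labelled Irf5-/-, with 264, 165 and 209 CPM, against 138, 106 and 98.8 CPM in untreated WT cells. These groups did not overlap, but the log2 fold change of 0.89 ± 0.28 was not called (adjusted p = 0.285). With GM-CSF the libraries of that label had 91.7, 137 and 183 CPM and WT libraries 114, 162 and 70.5 CPM, which overlapped. CSF2ra-/- libraries had 97.3, 77.6 and 68.9 CPM with GM-CSF and 77.7, 82.5 and 68.6 CPM untreated. The untreated CSF2ra-/- libraries lay below the untreated WT ones, with a log2 fold change of -0.58 ± 0.28 that was not called (adjusted p = 0.185). The GM-CSF effect on Mmp8 in WT cells was 0.01 ± 0.28 (95% interval -0.57 to 0.60).

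Mmp19 (ENSMUSG00000025355, chromosome 10, 128790910 to 128800824, plus strand) encodes a metalloprotease that cuts basement membrane proteins. Its counts are uncertain, because 789 exon bases lie over Tmem198b on the opposite strand, a gene with 4780 reads in all against 3001 for Mmp19, and the strand setting of the counting is not given in the sources used here. WT cells with both cytokines had 13.99, 15.9 and 11.8 CPM, WT cells with GM-CSF 10.97, 6.42 and 9.12 CPM, WT cells with IL-10 12.04, 11.2 and 9.73 CPM and untreated WT cells 10.7, 9.73 and 10.5 CPM. The libraries with both cytokines lay above those with GM-CSF alone, a difference of 0.65 ± 0.20 that was not called (adjusted p = 0.722).

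CSF2ra-/- libraries had 5.46, 5.34 and 6.502 CPM of Mmp19 with GM-CSF and 3.58, 4.77 and 5.32 CPM untreated. The untreated ones lay below all untreated WT libraries, and Mmp19 fell by 1.15 ± 0.21 on the log2 scale (adjusted p = 0.00226). With GM-CSF the difference was -0.62 ± 0.21 (adjusted p = 0.119), and it was called only without WT GM-CSF replicate 2 (adjusted p = 0.034). In those labelled Irf5-/- Mmp19 stood at 12.9, 8.65 and 7.48 CPM with GM-CSF and 5.12, 5.96 and 7.12 CPM untreated. Their GM-CSF effect on Mmp19 exceeded that in WT by 0.88 ± 0.29 (95% interval 0.27 to 1.48), which did not pass the correction (edgeR adjusted p = 0.987).

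Mmp14 (ENSMUSG00000000957, chromosome 14, 54431612 to 54445364, plus strand) encodes the membrane-anchored metalloprotease MT1-MMP, which activates progelatinase A at the cell surface. It was counted 42, 79 and 39 times in WT libraries with both cytokines, 15, 4 and 14 with GM-CSF, 13, 16 and 8 with IL-10 and 11, 5 and 14 untreated. Scaled, that was 3.11, 5.75 and 2.04 CPM with both cytokines and 0.719, 0.431 and 1.05 CPM untreated. All 3 libraries with both cytokines lay above all 9 other WT libraries. The log2 fold change was 2.41 ± 0.62 for IL-10 added to GM-CSF (adjusted p = 0.384), 2.03 ± 0.61 for GM-CSF added to IL-10 (adjusted p = 0.176) and 2.28 ± 0.63 for both against none (adjusted p = 0.0774), and none was called.

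The call for Mmp14 with both cytokines against none depended on the fit and on 1 library. It passed with DESeq2 (adjusted p = 0.028), with a Y-linked covariate (0.00602) and without replicate 3 of both cytokines (0.0488). For GM-CSF added to IL-10 Mmp14 passed with the Y-linked covariate (adjusted p = 0.0171). The GM-CSF effect on Mmp14 was larger with IL-10 than without it by 2.15 ± 0.95 (95% interval 0.18 to 4.12), which did not pass the correction (edgeR adjusted p = 1.0). CSF2ra-/- libraries had 7, 4 and 8 counts with GM-CSF and 1, 12 and 6 counts untreated, and libraries labelled Irf5-/- had 12, 44 and 19 with GM-CSF and 1, 46 and 42 untreated. Replicate 1 was the lowest of the 3 in both groups of that label.

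Timp1 (ENSMUSG00000001131, chromosome X, 20870166 to 20874735, plus strand) encodes a secreted inhibitor of most metalloproteases. It was counted 29, 54 and 17 times with both cytokines, 5, 2 and 17 with GM-CSF, 9, 16 and 8 with IL-10 and 2, 0 and 7 in untreated WT libraries. With both cytokines all 3 lay above the untreated ones, at 2.15, 3.93 and 0.891 CPM against 0.131, 0 and 0.523 CPM, and the log2 fold change of 3.36 ± 1.16 was not called (adjusted p = 0.204). It was called once the Y-linked level entered as a covariate (adjusted p = 0.0137).

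Libraries labelled Irf5-/- had 8, 78 and 38 Timp1 counts with GM-CSF and 0, 84 and 64 untreated, and replicate 1 was again the lowest in both groups. Set against WT, the log2 fold change was 4.05 ± 1.13 untreated (adjusted p = 0.279) and 2.66 ± 0.97 with GM-CSF (adjusted p = 1.0), and neither was called. CSF2ra-/- libraries had 2, 3 and 0 counts with GM-CSF and 0, 5 and 0 untreated. With so few reads a difference between the CSF2ra-/- and untreated WT groups was not detectable at this depth (log2 fold change -0.92 ± 1.87, 95% interval -4.83 to 2.98).

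Timp1 and Mmp14 moved with collagen transcripts, which mark fibroblasts, but not with every stromal marker. The library with the most Timp1 was also highest for Col1a1, the type I collagen chain gene, in 7 of the 8 groups, and that with the most Mmp14 in 6. Mmp14 and Timp1 shared their highest library in 7. In the CSF2ra-/- groups the Timp1 matches rested on 3 and 5 counts. Pdgfrb, another stromal marker gene, was not always high where Timp1 was. Of the 3 untreated WT libraries (53.5, 41.3 and 35.6 CPM) it was lowest where Timp1 was highest. In untreated CSF2ra-/- libraries (50.95, 78.6 and 50.45 CPM) it was highest there. The 7 stromal and endothelial markers, summed, had 477, 444 and 442 CPM and 477, 588 and 529 CPM in those groups. Most of that sum was Pecam1, an endothelial marker gene, at 423, 399 and 402 CPM and at 426, 507 and 478 CPM. The sum therefore cannot show how the collagen transcripts moved. Col1a1 stood at 0, 13.97 and 2.98 CPM in libraries labelled Irf5-/- with GM-CSF and at 0, 14.98 and 5.56 CPM untreated. In WT it stood at 0.296, 0.727 and 4.82 CPM with both cytokines and at 0.196, 1.12 and 2.17 CPM untreated. WT cells with both cytokines were an exception for both genes, since Mmp14 and Timp1 were highest there in replicates 1 and 2, whose Col1a1 was lowest. For Mmp14 CSF2ra-/- cells with GM-CSF were another, with 7, 4 and 8 Mmp14 counts against 0, 0.301 and 0 CPM of Col1a1. Leaving out the 4 libraries with more than 10 CPM of summed collagen transcripts, a step added after the levels were seen, left 2 libraries with both cytokines and called Mmp14 higher with both cytokines (adjusted p = 0.0123) and with GM-CSF added to IL-10 (0.0325). It also left a single untreated library labelled Irf5-/-, with 1 Mmp14 count and 0 Timp1 counts, and turned the Mmp14 log2 fold change against untreated WT to -2.20 (adjusted p = 0.79), against 1.62 ± 0.65 with all libraries.

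Timp2 (ENSMUSG00000017466, chromosome 11, 118301069 to 118355740, minus strand) encodes an inhibitor that also helps MT1-MMP to activate progelatinase A. It was the steadiest of the 10 genes, with 207 to 306 CPM over the 24 libraries and a median of 248 CPM. The group means lay between 240.5 CPM in CSF2ra-/- cells with GM-CSF and 265 CPM in untreated libraries labelled Irf5-/-. The log2 fold change of GM-CSF in WT cells was 0.02 ± 0.13 (95% interval -0.25 to 0.28), and that of both cytokines 0.08 ± 0.13 (95% interval -0.19 to 0.34).

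The CSF2ra-/- differences came with lower levels of some macrophage, dendritic cell and neutrophil markers. Against untreated WT cells, 13 of 18 monocyte and macrophage markers, 5 of 9 tested dendritic cell markers and 5 of 15 tested neutrophil markers fell in untreated CSF2ra-/- cells, and with GM-CSF 4, 6 and 6. Among all genes 5.32% were called lower untreated and 2.89% with GM-CSF, and 10.8% were called in either direction untreated. Of 9 tested mast cell and basophil markers, 2 rose in untreated CSF2ra-/- cells, Hdc (0.63 ± 0.18, adjusted p = 0.0346) and Cpa3 (0.62 ± 0.16, adjusted p = 0.0162), and 0 fell. The 10 listed, summed, had 856 to 1137 CPM in untreated CSF2ra-/- libraries and 664 to 814 CPM in untreated WT libraries. The summed macrophage markers spanned 2206 to 2793 CPM in untreated CSF2ra-/- libraries and 2692 to 2756 CPM in untreated WT libraries. With GM-CSF they spanned 2118 to 2445 CPM in CSF2ra-/- libraries and 2429 to 2754 CPM in WT libraries. The summed dendritic cell markers spanned 131 to 234 CPM in untreated CSF2ra-/- libraries and 466 to 498 CPM in untreated WT libraries. With GM-CSF these sums were 124 to 213 CPM in CSF2ra-/- libraries and 380 to 777 CPM in WT libraries. For the neutrophil markers, summed, the untreated ranges overlapped, at 1750 to 2537 CPM in CSF2ra-/- libraries and 2127 to 2456 CPM in WT libraries. With GM-CSF they were 1866 to 1942 CPM in CSF2ra-/- libraries and 2223 to 2431 CPM in WT libraries. Csf1r, a defining macrophage marker, stood at 144, 122 and 102 CPM in untreated CSF2ra-/- cells and 138, 166 and 171 CPM in untreated WT cells. The Y-linked sums were 148 to 185 CPM in the CSF2ra-/- libraries and 52.5 to 178 CPM in the WT libraries of these comparisons. When the Y-linked level was a covariate, the 7 calls other than that of Arg1 held. The part of the markers in the lower Arg1, Chil3, Mmp9, Mmp12 and Mmp19 levels was not tested.

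The wider alternative activation list of 25 genes had 22 tested. With GM-CSF in WT cells 4 rose and 2 fell, where 0.555% of all genes were called, with a median log2 fold change of -0.10. The largest rises were of the chemokine genes Ccl17 (4.94 ± 0.42, adjusted p = 1.49e-06) and Ccl24 (2.94 ± 0.46, adjusted p = 0.00144), and Igf1, a growth factor, fell (-2.50 ± 0.34, adjusted p = 0.000464). IL-10 alone raised 1, Ccl24, by 2.95 ± 0.46 (adjusted p = 0.0135), where 0.0505% of all genes were called. With both cytokines against none 6 rose and 3 fell, where 1.5% of all genes were called, and in libraries labelled Irf5-/- 5 rose with GM-CSF and 0 fell, where 0.353% were. In CSF2ra-/- cells GM-CSF called 0 of them by edgeR. Against WT, 12 fell in untreated CSF2ra-/- cells, where 5.32% of all genes were called lower, and 9 fell with GM-CSF in both, where 2.89% were, and none rose. Among these, Mrc1 fell by 2.91 ± 0.79 on the log2 scale untreated (adjusted p = 0.0264), and Cd209a fell by 5.99 ± 1.39 with GM-CSF (adjusted p = 0.0164). Of the 25 genes, 5 (Alox15, Cd209a, Mrc1, Retnlg and Trem2) are also held by the marker lists of eosinophils, dendritic cells, macrophages or neutrophils.

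Of 11 genes of the interleukin-4 and interleukin-13 pathway, all tested, Il13 rose with GM-CSF in WT cells (1.54 ± 0.22, adjusted p = 0.000786) and 0 fell. Among all genes 0.555% were called there. With both cytokines 4 rose, where 1.15% of all genes were called higher. These were Il13 (1.82 ± 0.22), the kinase gene Jak3 (1.38 ± 0.26), the feedback inhibitor gene Socs1 (0.99 ± 0.23) and the receptor gene Il4ra. In CSF2ra-/- cells the transcription factor gene Stat6 fell by 0.43 ± 0.11 on the log2 scale untreated (adjusted p = 0.0162). There 5.32% of all genes were called lower and 10.8% in either direction, so 1 of 11 is near the share of all genes. With GM-CSF 3 fell in CSF2ra-/- cells relative to WT, where 2.89% of all genes were called lower. Among the 3 were Il13 (-0.98 ± 0.21, adjusted p = 0.00751) and Il4ra (-0.35 ± 0.08, adjusted p = 0.0164).

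Other protease genes were counted in the same way. In CSF2ra-/- cells relative to WT 5.32% of all genes were called lower untreated and 2.89% with GM-CSF. Of 17 further matrix metalloprotease genes 6 passed the filter, and edgeR called Mmp13, a collagenase, lower in CSF2ra-/- cells both untreated (-1.32 ± 0.25, adjusted p = 0.0031) and with GM-CSF (-0.98 ± 0.25, adjusted p = 0.0283). None of the 6 was called in the other comparisons. Of 12 ADAM and ADAMTS genes 6 were tested, and Adam9 fell in untreated CSF2ra-/- cells (-0.40 ± 0.10, adjusted p = 0.0155). A single called gene of 6 says little beside the share of all genes. Among 10 cathepsin genes the lysosomal protease genes Ctss (-1.68 ± 0.35, adjusted p = 0.00612) and Ctsb (-0.51 ± 0.13, adjusted p = 0.0146) fell in untreated CSF2ra-/- cells. With GM-CSF Ctss (-1.66 ± 0.35) and Ctsz (-0.53 ± 0.15) fell in CSF2ra-/- cells relative to WT. Of 12 other inhibitor and activation genes 7 were tested, and edgeR called 0 in every comparison.

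Likeness was measured as Pearson's r over the 8 group means, which share their libraries, among 9119 tested genes with a mean of at least 5 CPM. The genes most like Mmp12 were Lrrc32 (r = 0.995), which encodes a carrier of latent TGF-β, Itgax (r = 0.987), the CD11c integrin gene, and Flt1 (r = 0.984), a VEGF receptor gene. Those most like Chil3 were the chemokine gene Ccl9 (r = 0.992), the actin-binding protein gene Avil (r = 0.99) and the amino acid oxidase gene Il4i1 (r = 0.989). For Retnla, Mmp14 and Timp1 the closest genes reached r = 0.947, 0.93 and 0.958. With 8 points and so many candidates a high r is reached by many genes, so these values describe the profiles and nothing more.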

How the data were processed

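The authors deposited raw read counts per Ensembl gene, 1 file for each library, as the file headers show. The submitters' processing notes name STAR, featureCounts and the build GRCm38.p6. Versions were not given in the sources used here, nor were settings for strand or multiply mapped reads. Symbols and coordinates came from GENCODE M21 on GRCm38. The genes and lists described were chosen with earlier results of these data known, and all 10 genes are named whatever their values.

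Counts were scaled by TMM (factors 0.939 to 1.031) and fitted with edgeR 4.0.16 (filterByExpr, robust quasi-likelihood) on R 4.3.3, in 1 model of 8 group means over 24 libraries. Its common biological coefficient of variation came to 14.1%. The 14 contrasts and a test of any difference were two-sided, with Benjamini-Hochberg adjustment over 11885 genes. Intervals are 95% intervals from the same fit. TPM used the union of annotated exons as length. Alternatives were DESeq2 1.42.0, limma-voom (limma 3.58.1), relative log expression factors, no filter, a stricter filter (1 CPM in 3 libraries), the compared groups fitted alone, the log2 summed level of 4 Y-linked genes as a covariate, and each library left out. The model was checked on simulated counts. Replicate numbers follow the order of the deposit and were not used to pair libraries. No 2 replicates agreed within sampling noise. Total counts of 6222979 to 18709153 leave Timp1 and Mmp14 with few reads, and values cover counting and library spread only.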

Additional observations from a re-analysis of the deposited data

How the results depend on the processing

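Of 2065 log2 fold changes recomputed for the 10 genes, 139 had the other sign, none of them called in either fit, and 6 further fits gave no finite value (Timp1 with every library of a group at 0). For GM-CSF in WT cells the count of called genes was 0, against 2 with DESeq2, 1 with the 2 groups fitted alone and 0 to 1 with each library left out. For IL-10 in WT cells it was 0, against 1 with the groups fitted alone. For both cytokines against none it was 2, against 1 with no filter, 4 with the Y-linked covariate and 1 to 3 with each library left out. For GM-CSF added to IL-10 it was 2, against 1 with no filter, 3 with the Y-linked covariate (Mmp14 added) and 1 to 2 leaving 1 library out. For GM-CSF in libraries labelled Irf5-/- it was 1 (Mmp12), against 1 other gene (Chil3) with the groups fitted alone and 0 to 1 when each library was left out. CSF2ra-/- against WT gave 3 with GM-CSF, with 3 to 5 when each library was left out, and 5 untreated, with 4 to 5. Libraries labelled Irf5-/- against untreated WT gave 0, against 3 with the groups fitted alone (Retnla, Mmp8 and Mmp19). The causes were not tested. The test of any difference called 8 genes whichever of the 24 libraries was left out. A fit with a lone library in a group assumes that it varies like the others. No paired analysis was possible because the labels tie no library to another, and numbers given by order of deposit cannot. In the groups labelled Irf5-/- libraries of the same number had similar Y-linked sums, at 163, 13.2 and 44.01 CPM with GM-CSF and 178, 12.1 and 39.3 CPM untreated. A shared source there was not tested, and the p-values ignore it. Depth limits Timp1 and Mmp14, whose intervals span several units on the log2 scale, and Mmp19 cannot be separated from Tmem198b where their exons overlap.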

Other observations

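Of 10 eosinophil marker genes, edgeR called 0 in each of the GM-CSF and IL-10 comparisons within a genotype. Against untreated WT cells 2 rose in untreated CSF2ra-/- cells, Prg3, a granule protein gene (0.46 ± 0.13, adjusted p = 0.0276 by edgeR), and Epx. The eotaxin receptor gene Ccr3 (-0.71 ± 0.18, adjusted p = 0.0175) and the lipoxygenase gene Alox15 (-0.61 ± 0.12, adjusted p = 0.00289) fell there. Among all genes 5.32% were called lower in that comparison and 10.8% in either direction. Of 9 genes for the receptors of GM-CSF and IL-10 and their STAT factors, Csf2ra itself rose when GM-CSF was added to IL-10 in WT cells (0.71 ± 0.14, adjusted p = 0.0108). There 0.724% of all genes were called higher. Stat5b fell in untreated CSF2ra-/- cells (-0.49 ± 0.13, adjusted p = 0.0188).

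Within groups, the library with the most Chil3 was also that with the most Mmp9 in 6 of 8 groups, although Chil3 rose with both cytokines and Mmp9 did not pass the test there. The library with the most Mmp12 was that with the most Chil3 in 4 of 8 groups.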
